A study of Mus musculus with 8 samples.

Results

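The genes of the T cell receptor's CD3 complex, of the signalling steps next to it and of cytotoxic granules were followed in LT-HSCs of asrij KO mice. They were 10 genes chosen by symbol for their function, of 54749 genes with a row in the count files: Cd3d, Cd3e, Cd3g and Cd247 of the CD3 complex, the proximal signalling genes Lck, Zap70 and Cd8a, and the cytotoxic effector genes Nkg7, Gzma and Ccl5. All 10 passed the filter on low counts, which left 21902 genes for testing. RNA of long-term (LT) HSCs from the bone marrow of 4 homozygous asrij floxed mice (libraries 1, 3, 4 and 5) and 4 asrij KO mice (libraries 2, 3, 4 and 5) was sequenced, with 1 library from each mouse. In the KO mice asrij, the mouse gene Ociad1, is deleted in the whole body and therefore also in the cells around the LT-HSCs. The floxed mice carry loxP-flanked asrij alleles and no Cre is given for them. All mice were 6 months old per the labels, and both genders were used in the study. The gate given for these libraries is LSK CD150+ CD48+, whereas the study's other assays gate LT-HSCs as CD48-.

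A T cell recognises antigen through a receptor that has no signalling part of its own. The CD3 chains carry the signal on short cytoplasmic stretches called ITAMs, each with a pair of tyrosines that the kinase Lck phosphorylates and to which the kinase Zap70 then binds. Killer T cells and NK cells store granzymes in granules and release them onto target cells. Most of these genes are used as markers of mature T and NK cells, and antibodies to CD3 are a usual part of the lineage mixture with which such cells are removed from an LSK sort.

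The ITAMs are the part of the CD3 chains that Lck and Zap70 act on, and they show how the members of the complex differ. Their coding stretches were read from the GRCm38 transcripts, 1 each in Cd3d, Cd3e and Cd3g and 3 in Cd247, and each crosses an exon junction. Capitals mark the codons of the tyrosines and of the leucines or isoleucines that follow them.
Cd3d, chr9:44986095-44986311, plus strand: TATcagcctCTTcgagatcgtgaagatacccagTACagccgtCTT
Cd3e, chr9:44999549-45000440, minus strand: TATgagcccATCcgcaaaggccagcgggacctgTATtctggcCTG
Cd3g, chr9:44970735-44971268, minus strand: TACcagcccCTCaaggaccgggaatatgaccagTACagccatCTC
Cd247 ITAM 1, chr1:165856451-165857454, plus strand: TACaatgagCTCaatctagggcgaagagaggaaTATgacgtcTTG
Cd247 ITAM 2, chr1:165858473-165859260, plus strand: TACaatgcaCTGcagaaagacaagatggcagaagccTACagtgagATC
Cd247 ITAM 3, chr1:165859819-165861042, plus strand: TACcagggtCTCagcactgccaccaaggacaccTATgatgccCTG
The stretches of Cd3d and Cd3g are the same at 32 of 45 bases (71.1%), and that of Cd3e matches either of them at 21 of 45 (46.7%). The second stretch of Cd247 has 48 bases. The counted transcripts of Cd3d, Cd3e, Cd3g and Cd247 share no stretch of 50 bases with one another.

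Total gene counts ranged from 23412829 to 44874882 per library. The targeted gene Ociad1 had a mean of 44.1 ± 15.7 CPM (read counts relative to the TMM-scaled library size; SD, n = 4) in floxed and 14.8 ± 3.62 CPM in KO libraries, and it fell by 1.58 on the log2 scale (SE 0.27, edgeR adjusted p = 0.0249). Without floxed library 1 or KO library 2, 4 or 5 its adjusted p was 0.0759 to 0.0881, with log2 fold changes of -1.58 to -1.45. A span inside Ociad1, chr5:73304127-73305159, held 130, 279, 60 and 46 counts in floxed libraries 1, 3, 4 and 5, and 0, 5, 0 and 0 in KO libraries 2, 3, 4 and 5. Libraries numbered 4 and 5 stood apart from those numbered 1 to 3 in both genotypes, so values within each set of numbers are given below. Floxed library 3 stood apart from the others of its genotype, with a count on 34367 genes against 28182 to 29707 in the other 7 libraries. Floxed library 3 was also the deepest library, with 44874882 gene counts. Results that rest on it are given with and without it.

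The 12 stem cell markers were all detected in every library. Kit, the receptor on which the sort selects, had 56.0 CPM in floxed mice and 50.9 CPM in KO libraries, and Cd48, for which the gate given is positive, had 48.4 and 41.6 CPM. Slamf1, which encodes CD150, had 1.33 CPM in floxed mice and 2.80 CPM in KO libraries, and Procr, a receptor of stem cells, had 0.344 and 0.544 CPM. Markers of mature cells were present as well. The 12 T cell markers, of which 4 are among the genes followed here, summed to 47.8 to 58.7 CPM in floxed and 43.9 to 49.3 CPM in KO libraries, and these ranges overlapped. The 9 NK cell markers summed to 29.6 to 33.8 CPM in floxed and 14.3 to 19.4 CPM in KO libraries, which did not overlap. All markers of both lists had a count in all 8 libraries. Neutrophil and monocyte markers summed to 12670 to 31420 CPM in floxed libraries, lowest in library 3, and to 15060 to 22600 CPM in KO libraries. The sums of 3 further lists did not overlap. Erythroid markers summed to 17730 to 46140 CPM in floxed and 78820 to 188900 CPM in KO libraries, megakaryocyte and platelet markers to 68.7 to 135 and 234 to 281 CPM, and plasma cell markers to 215 to 363 and 179 to 186 CPM. The erythroid sum rests mostly on Hba-a1 and Hbb-bs, and the plasma cell sum mostly on Xbp1 and Jchain. Of the other plasma cell markers, Mzb1 and Sdc1 had higher means in KO, and Prdm1, Irf4 and Tnfrsf17 had lower ones. Among single genes tested, 7.66% had all KO libraries below all floxed libraries and 7.1% had them above. The part that these other cell types have in the results below was not tested.

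**Figure D1:**
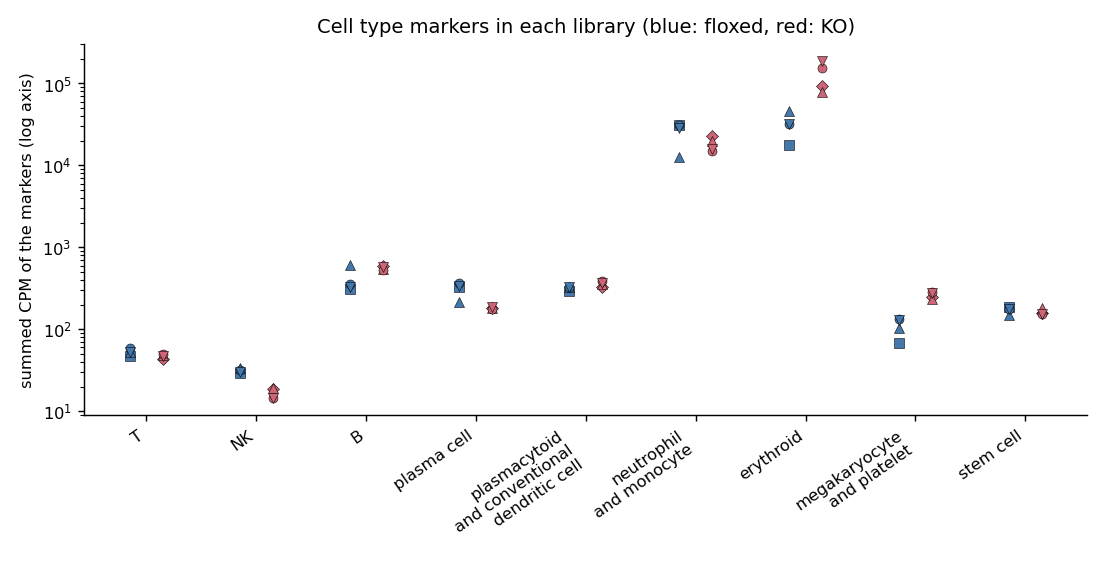
Summed CPM of each marker list (log axis) in every library, floxed in blue and KO in red, with the point shape giving the library number as a square for 1, a diamond for 2, an upward triangle for 3, a circle for 4 and a downward triangle for 5. The NK sums of the KO libraries (14.3 to 19.4 CPM) lie below all floxed sums (29.6 to 33.8 CPM), while the T cell sums overlap.

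Of the 10 genes, 8 were lower and 2 were higher in KO LT-HSCs, with a median log2 fold change of -0.56 against -0.01 over all genes tested, of which 50.4% were lower. With Cd247 counted on its coding transcript, described below, 7 were lower and 3 were higher, with the same median. None of these differences passed the test. With edgeR's quasi-likelihood test 0 of 10 were called (adjusted p under 0.05 and absolute log2 fold change above 1.5), against 1.19% of all genes tested (0.452% higher and 0.74% lower). The fit with the library number as a block leaves out floxed library 1 and KO library 2. In it 44 genes were called in place of 261, and still 0 of the 10. In the main fit, with all 8 libraries and no block, adjusted p was under 0.05 for 0 of 10, against 2.97% of all genes. It ranged from 0.131 for Gzma to 0.831 for Lck. The unadjusted p of this fit was under 0.05 for 4 of 10 genes, Cd3d, Nkg7, Gzma and Ccl5, against 21.8% of all genes. With numbers 4 and 5 as a covariate, adjusted p was under 0.05 for 1 of 10, Gzma, against 18.5% of all genes. DESeq2 gave no p for Cd3d, and among the other 9 genes 0 calls with 3 unadjusted p under 0.05. For limma-voom there were 0 calls with 1 such p among the 10. The shares of all genes with such a p in these 2 fits are not given here. Only in Gzma did the KO libraries all lie below the floxed libraries, against 7.66% of all genes. In RNA of a whole sorted population, fewer cells of a type cannot be told apart from less RNA in each cell.

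**Figure D2:**
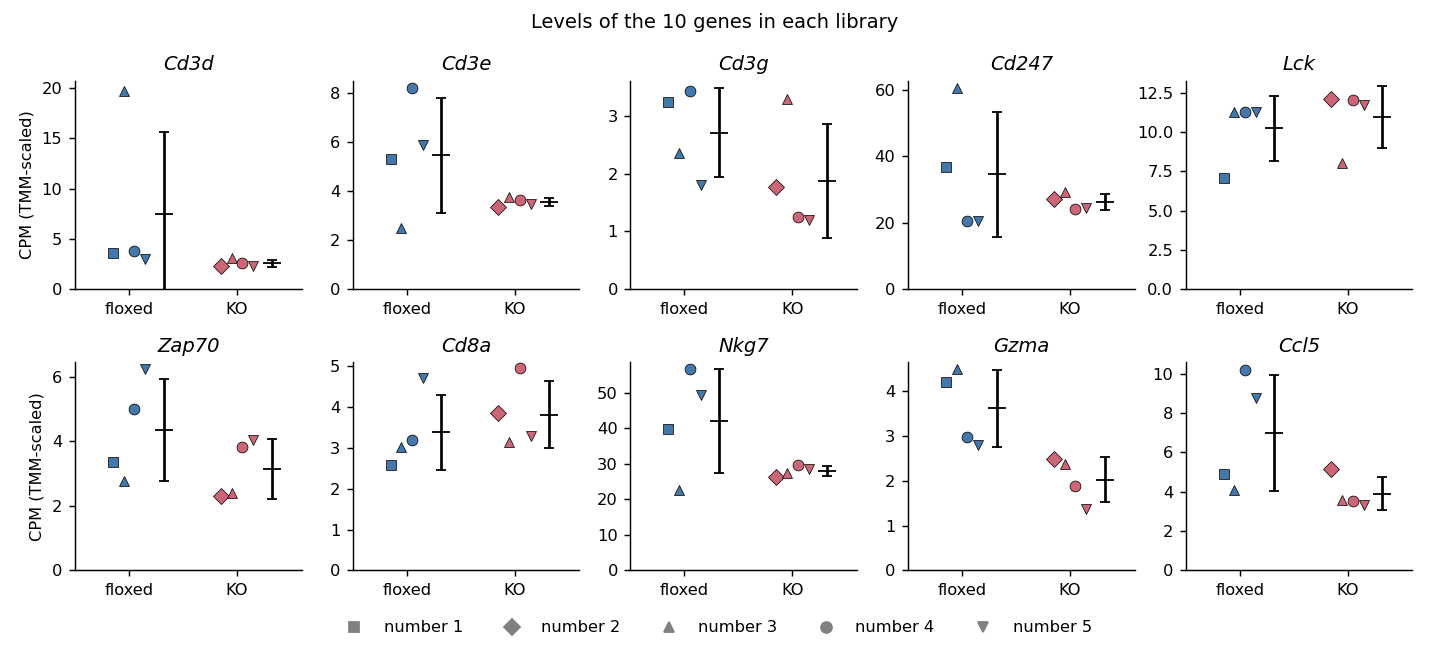
CPM (TMM-scaled) of each of the 10 genes in the 4 floxed (blue) and 4 KO (red) libraries, with the library number given by the point shape and the mean ± SD in black; the lower SD bar of Cd3d in floxed mice is cut off at 0. Floxed library 3 is highest for Cd3d (19.7 CPM) and lowest of its group for Cd3e, Nkg7, Ccl5 and Zap70, and Gzma is the gene in which the groups do not overlap.

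Per kilobase of spliced transcript, the levels of these genes differed widely. Nkg7 was highest, with 47.9 CPM per kb in floxed libraries, above 90.7% of the genes tested, and the median gene had 5.84 CPM per kb. Ccl5 followed with 13.1 CPM per kb, and its floxed libraries overlapped neither those of Nkg7 above nor those of Lck below it. Lck (4.85), Cd3d (4.64), Gzma (4.11), Cd3e (3.74), Cd3g (2.65), Zap70 (1.94) and Cd8a (1.08 CPM per kb) came next, and the libraries of each overlapped those of its neighbour in this order. Without floxed library 3, Cd3d had 2.13 CPM per kb and stood below Cd3g. In KO libraries Nkg7 had 31.8, Ccl5 7.34, Lck 5.2 and Cd3e 2.43 CPM per kb. Since introns appear to be counted too, the levels were also set per kb of the genomic span. This changed the order in floxed libraries to Nkg7 (35.8), Ccl5 (1.47), Cd3d (1.35), Cd8a (0.588), Gzma (0.505), Cd3e (0.502), Lck (0.405), Cd3g (0.25) and Zap70 (0.207 CPM per kb of span). Nkg7 and Ccl5 came before the others on both scales. Cd247 is left out of these orders for the reason given next.

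The count of Cd247, which encodes the zeta chain with most of the receptor's ITAMs, rested on a span that is mostly shared with another gene. The transcript with the highest total over 8 libraries is a non-coding one (chr1:165864655-165877277, GRCm38), and 12124 of its 12623 bases lie within Pou2f1, a gene for a widely expressed transcription factor on the opposite strand. The deposited counts appear to cover introns and both strands, so reads of these genes cannot be told apart here. This transcript had 36.9, 60.5, 20.5 and 20.6 CPM in floxed libraries 1, 3, 4 and 5, and 27.3, 29.2, 24.2 and 24.3 CPM in KO libraries 2, 3, 4 and 5. Its count was 75.8% to 86.3% of that of Pou2f1 in every library, and it is highest where Pou2f1 is highest, in floxed library 3 (74.9 CPM). The log2 fold change was -0.40 (SE 0.33, edgeR adjusted p = 0.522) for Cd247 and -0.34 (adjusted p = 0.605) for Pou2f1.

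The coding transcript of Cd247 that contains the ITAMs above (chr1:165788689-165862066) ends 3088 bases before Pou2f1 and held a total of 1027 counts, 11.2% of the total of the other transcript. It had 2.77, 4.18, 3.91 and 2.95 CPM in floxed libraries and 3.82, 3.51, 3.87 and 5.04 CPM in KO libraries, and the groups overlapped. The direction turned, with a log2 fold change of 0.23 (SE 0.24, 95% interval -0.29 to 0.76, edgeR adjusted p = 0.62). Of its stretches of 50 bases, 9.41% are shared with the neighbouring gene Gm16565. Cd247 transcripts that end 2283, 3941, 5096 and 6000 bases inside Pou2f1 had totals of 5050, 6656, 7519 and 8038, so that among these the total grew with the part shared with Pou2f1. From 6000 to 12124 shared bases the count fell in floxed library 4 and KO libraries 2, 4 and 5, and it rose in the others. At 2.12 CPM per kb in floxed libraries, the coding transcript lies between Cd3g and Zap70, and its libraries overlap those of both.

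**Figure D3:**
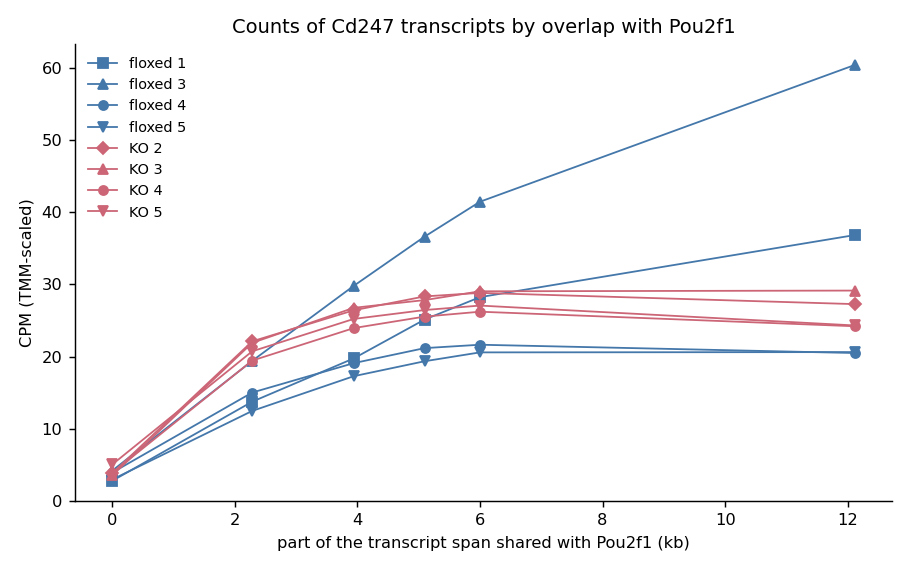
CPM of Cd247 transcripts in each library (lines) against the part of their span that is shared with Pou2f1 in kb; transcripts of the same span are drawn once and 1 short transcript is left out. All libraries lie at 2.77 to 5.04 CPM for the coding transcript that shares nothing, and spread to 20.5 to 60.5 CPM for the one that shares the most, with floxed library 3 on top.

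Cd3d, Cd3e and Cd3g encode the delta, epsilon and gamma chains, which pair with one another beside the antigen-binding chains, and lie within a short stretch of chromosome 9. Cd3d (chr9:44981786-44987339, plus strand) had 3.59, 19.7, 3.74 and 2.99 CPM in floxed libraries 1, 3, 4 and 5, and 2.33, 3.07, 2.55 and 2.32 CPM in KO libraries. Floxed library 3 was 5.73 times the mean of the other floxed libraries and 5.27 times the highest of the other 7, and the other floxed libraries lay close to the KO libraries. KO against floxed gave a log2 fold change of -1.55 (SE 0.59, edgeR adjusted p = 0.167) with all libraries and -0.41 (SE 0.21, adjusted p = 0.226) without floxed library 3. The exact two-sided permutation test of Cd3d over 70 labelings gave p = 0.0571, where 0.0286 is the smallest that it can give. The count in floxed library 3 was 1042, against 64 to 136 in the other 7. A span in the 3′ part of Cd3d (chr9:44985823-44986421), which takes up 10.8% of the gene, held 11.2% of the Cd3d count in floxed library 3, within the 9.09% to 18.1% seen in the other libraries.

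Cd3e (chr9:44998740-45009613, minus strand) had 5.30, 2.48, 8.21 and 5.86 CPM in floxed libraries 1, 3, 4 and 5, and 3.36, 3.74, 3.62 and 3.48 CPM in KO libraries. Floxed library 3, the highest for Cd3d, was the lowest of all 8 for Cd3e, and the other floxed libraries all lay above every KO library. The fitted log2 fold change was -0.62 (SE 0.33, edgeR adjusted p = 0.309) with all libraries, and without floxed library 3 Cd3e fell by 0.85 (SE 0.20, adjusted p = 0.0227). Cd3e overlaps the antisense gene Gm48719, whose count was 25.4% to 56.9% of that of Cd3e, and reads of both cannot be told apart. Gm48720, which also overlaps Cd3e, had 1 count in all. Within library numbers 1 to 3 the difference of mean log2(CPM + 1) of Cd3e was -0.04, and within numbers 4 and 5 it was -0.81.

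Cd3g (chr9:44969572-44980431, minus strand) had 3.24, 2.36, 3.44 and 1.80 CPM in floxed libraries 1, 3, 4 and 5, and 1.77, 3.30, 1.24 and 1.20 CPM in KO libraries. The groups overlapped, with KO library 3 among the highest. The log2 fold change was -0.52 (SE 0.39, 95% interval -1.39 to 0.35, edgeR adjusted p = 0.475). Floxed library 3, which was so high for Cd3d, was not high for Cd3g, although the start sites of these neighbours are 1355 bases apart on opposite strands. For Cd3d the difference was -1.40 within numbers 1 to 3, which include floxed library 3, and -0.34 within numbers 4 and 5.

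The 250 bases before the start sites are shown for Cd3g, Cd3d, Cd3e and Nkg7, which were picked after their values were seen. Cd3d and Cd3g, which lie head to head, differed in floxed library 3. Cd3e varied across libraries with Nkg7 rather than with its neighbours. The sequences are from RefSeq (GRCm38.p6), which held an entry for 9 of the 10 genes, Ccl5 being the one without. Capitals mark GGAAG or CTTCC, a form of ETS factor sites on either strand, called the ETS letters here. They also mark TGTGGT or ACCACA, a form of RUNX factor sites, called the RUNX letters. Other forms of these sites were neither marked nor counted, so a count of 0 does not mean that no such site is present.
Cd3g, chr9:44980432-44980681, minus strand: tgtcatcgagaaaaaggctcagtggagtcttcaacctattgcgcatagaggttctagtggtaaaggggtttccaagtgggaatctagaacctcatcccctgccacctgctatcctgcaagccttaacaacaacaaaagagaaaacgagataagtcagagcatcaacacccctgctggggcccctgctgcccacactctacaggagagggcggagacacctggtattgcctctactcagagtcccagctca
Cd3d, chr9:44981536-44981785, plus strand: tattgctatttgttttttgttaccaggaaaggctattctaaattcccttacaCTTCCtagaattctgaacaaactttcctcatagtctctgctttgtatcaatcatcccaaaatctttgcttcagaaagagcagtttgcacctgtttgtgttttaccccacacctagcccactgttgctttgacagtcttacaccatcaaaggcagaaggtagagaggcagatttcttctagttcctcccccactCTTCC
Cd3e, chr9:45009612-45009861, minus strand: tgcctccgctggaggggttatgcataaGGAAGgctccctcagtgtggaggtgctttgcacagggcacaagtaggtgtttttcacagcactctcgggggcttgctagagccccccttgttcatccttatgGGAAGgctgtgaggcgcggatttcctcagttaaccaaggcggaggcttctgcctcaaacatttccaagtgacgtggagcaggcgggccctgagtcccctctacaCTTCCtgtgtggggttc
Nkg7, chr7:43436888-43437137, plus strand: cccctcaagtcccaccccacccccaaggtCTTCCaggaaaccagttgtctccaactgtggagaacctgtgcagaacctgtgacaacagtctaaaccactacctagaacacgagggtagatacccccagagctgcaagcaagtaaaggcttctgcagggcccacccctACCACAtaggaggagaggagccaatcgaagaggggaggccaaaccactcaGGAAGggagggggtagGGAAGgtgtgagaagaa
The ETS letters occur 3 times each in the Cd3e and Nkg7 stretches, 2 times for Cd3d and 0 times for Cd3g. The RUNX letters occur 1 time, in the Nkg7 stretch. These stretches end at the RefSeq start sites. The counted Nkg7 transcript starts before the RefSeq site, at chr7:43437073. The end of the Nkg7 stretch, with both of its GGAAG, therefore lies inside the counted transcript. Of all 32851 promoters of this length, 64.1% hold the ETS letters and 14% the RUNX letters. Of the 12 promoters listed for the 9 genes, 10 hold the ETS letters and 4 the RUNX letters. The ETS letters occur up to 3 times in a promoter of Lck and up to 4 times in a promoter of Zap70. None of the 12 holds TATAAA, which 12.4% of all promoters hold. Whether any of these letters bear on the levels of the genes was not tested.

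Lck, Zap70 and Cd8a act at the first steps of receptor signalling, and none of them passed the test between genotypes. Lck (chr4:129548349-129573641, minus strand), the kinase that phosphorylates the ITAMs, had 7.09, 11.3, 11.3 and 11.3 CPM in floxed libraries 1, 3, 4 and 5, and 12.2, 8.01, 12.0 and 11.7 CPM in KO libraries 2, 3, 4 and 5. In each genotype 3 libraries lay close together and 1 was lower, library 1 of the floxed and library 3 of the KO mice. Fitted on the log2 scale, the difference was 0.10 (SE 0.22, 95% interval -0.39 to 0.59, edgeR adjusted p = 0.831). Its direction turned with the library numbers 3, 4 and 5 as a block (-0.10) and without floxed library 1 (-0.0179).

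Zap70 (chr1:36761798-36782818, plus strand), the kinase that binds phosphorylated ITAMs, had 3.38, 2.76, 5.02 and 6.25 CPM in floxed libraries and 2.31, 2.39, 3.83 and 4.06 CPM in KO libraries. Libraries 4 and 5 were the highest of each genotype, and the groups overlapped. KO against floxed gave a log2 fold change of -0.46 (SE 0.33, 95% interval -1.20 to 0.27, edgeR adjusted p = 0.45), with differences of mean log2(CPM + 1) of -0.28 within numbers 1 to 3 and -0.42 within numbers 4 and 5. The 2 other genes that overlap Lck and Zap70, Mir8119 and Gm18828, had only 17 and 3 counts over 8 libraries.

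Cd8a (chr6:71373427-71379169, plus strand), a chain of the coreceptor that brings Lck to the receptor, had 2.58, 3.03, 3.19 and 4.71 CPM in floxed libraries and 3.84, 3.15, 4.97 and 3.30 CPM in KO libraries. The groups overlapped almost fully. The log2 fold change was 0.18 (SE 0.27, 95% interval -0.42 to 0.77, edgeR adjusted p = 0.751).

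The 3 cytotoxic effector genes had lower means in KO LT-HSCs, and none of them passed the test with all libraries. Gzma (chr13:113093827-113100981, minus strand), which encodes granzyme A, a protease of cytotoxic granules, had 4.19, 4.48, 2.98 and 2.80 CPM in floxed libraries 1, 3, 4 and 5, and 2.49, 2.37, 1.88 and 1.38 CPM in KO libraries 2, 3, 4 and 5. Every KO library lay below every floxed library, and libraries 4 and 5 were the lowest of each genotype. The means were 3.61 ± 0.849 and 2.03 ± 0.507 CPM (SD, n = 4), with a log2 fold change of -0.83 (SE 0.29, edgeR adjusted p = 0.131). The exact two-sided permutation test of Gzma gave p = 0.0286, the smallest that it can give. The differences of mean log2(CPM + 1) were -0.64 within numbers 1 to 3 and -0.57 within numbers 4 and 5. With a pseudocount of 5 in place of 1 they were -0.33 and -0.25, and with 0.1 they were -0.81 and -0.80. With numbers 4 and 5 as a covariate the edgeR adjusted p of Gzma was 0.0191, where 18.5% of all genes had one under 0.05 and 9.65% had one and were lower. The NK marker sum given above was also lower in every KO library than in every floxed library, and its part in the Gzma result was not tested.

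Nkg7 (chr7:43437073-43438249, plus strand), which encodes a membrane protein of cytotoxic granules, had 39.8, 22.7, 56.8 and 49.4 CPM in floxed libraries 1, 3, 4 and 5, and 26.3, 27.5, 29.6 and 28.6 CPM in KO libraries. The KO libraries lay close together, 3 floxed libraries were higher than all of them, and floxed library 3 was lower than all of them. The means were 42.2 ± 14.7 and 28.0 ± 1.43 CPM (SD, n = 4). The genotype difference on the log2 scale was -0.59 (SE 0.25, edgeR adjusted p = 0.208) with all libraries, and without floxed library 3 Nkg7 fell by 0.79 (SE 0.15, adjusted p = 0.00835). The neutrophil and monocyte markers were also lowest in floxed library 3 among the floxed libraries (12670 CPM), and their part in the Nkg7 result was not tested. The difference of mean log2(CPM + 1) was -0.16 within numbers 1 to 3 and -0.84 within numbers 4 and 5.

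Ccl5 (chr11:83525778-83530518, minus strand), a chemokine that T and NK cells release, had 4.88, 4.08, 10.2 and 8.74 CPM in floxed libraries 1, 3, 4 and 5, and 5.15, 3.59, 3.55 and 3.33 CPM in KO libraries. Floxed libraries 4 and 5 stood above all others, and floxed libraries 1 and 3 overlapped the KO libraries. Fitted on the log2 scale, the difference was -0.83 (SE 0.32, edgeR adjusted p = 0.172) with all libraries, and without floxed library 3 Ccl5 fell by 1.01 (SE 0.29, adjusted p = 0.0446). The difference was -0.04 within numbers 1 to 3 and -1.23 within numbers 4 and 5, so that nearly all of it lay within the latter.

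Without floxed library 3, 3 of the 10 genes (Cd3e, Nkg7 and Ccl5) had an adjusted p under 0.05 and all of them were lower in KO, where 17.5% of all genes had one and 8.64% had one and were lower. Of the 10 genes, 0 were then called with the fold change threshold as well, against 3.88% of all genes.

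**Figure D4:**
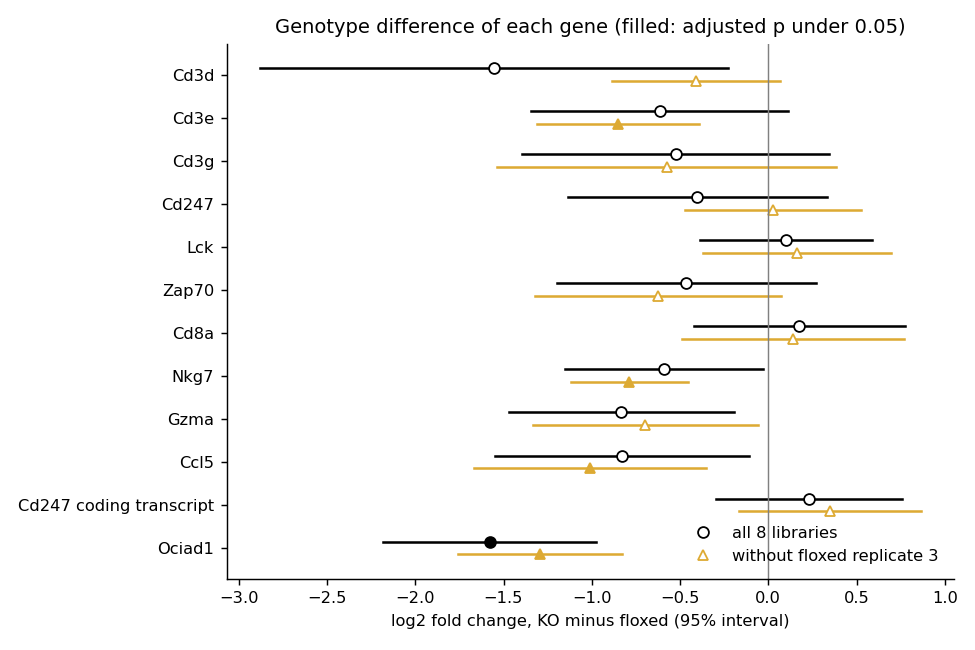
Log2 fold change (KO minus floxed) with its 95% interval from edgeR, with all 8 libraries (circles) and without floxed replicate 3 (triangles), filled where adjusted p is under 0.05. Cd3d moves from -1.55 to -0.41 without this library, Cd3e, Nkg7 and Ccl5 pass the threshold only without it, and Cd247 by its coding transcript lies at 0.23.

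Across the 8 libraries Cd3e, Nkg7 and Ccl5 varied together, with Pearson correlations of log2 CPM of 0.98 for Cd3e and Nkg7, 0.86 for Nkg7 and Ccl5 and 0.82 for Cd3e and Ccl5. Cd3d varied otherwise, at -0.37 with Cd3e, 0.32 with Cd3g and 0.83 with the Cd247 span that lies in Pou2f1. These values describe 8 libraries, which also differ together in genotype, depth and library number. The genes most like Nkg7 in all genes tested were Rac1 (0.994), Glipr2 (0.994) and Gm4854 (0.989). Those most like the Cd247 span were Mto1 (0.996), Usp24 (0.995) and Chd2 (0.993), and those most like Lck were Fbxl12os (0.956), Gm48882 (0.953) and Gm38250 (0.942).

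The genes that work beside these 10 were read in the same way. Of 20 T cell receptor chains, coreceptors and costimulatory receptors, 16 were tested and 0 had an edgeR adjusted p under 0.05, against 2.97% of all genes, with 3 at an unadjusted p under 0.05 and a median log2 fold change of -0.12. The constant region of the alpha chain, Trac, was at 4.16 CPM in floxed and at 3.92 in KO, a log2 fold change of -0.08 (adjusted p = 0.923), and those of the beta chain, Trbc1 and Trbc2, had -0.08 and 0.04. The groups overlapped for Trac, Trbc1 and Trbc2. Il7r, the interleukin 7 receptor, had 32.8 and 25.7 CPM in floxed and KO, and Ctla4, an inhibitory receptor, had 11.6 and 16.4 CPM. These were the highest mean CPM of the list, and neither passed. Ctla4 overlaps the pseudogene Rpl18-ps1, whose count was 97.3% of that of Ctla4, and reads of both cannot be told apart. Without floxed library 3 the number that passed was 1, against 17.5% of all genes. With numbers 4 and 5 as a covariate it was 1, against 18.5% of all genes.

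Of 30 signalling genes downstream of Lck and Zap70 or acting on them, 30 were tested and 25 were lower in KO, with a median log2 fold change of -0.31, and 2 passed. Over all genes tested, 50.4% were lower and 2.97% passed, or 17.5% without floxed library 3. Pag1, a membrane adaptor that holds the kinase restraining Lck, had 239, 164, 138 and 175 CPM in floxed and 88.7, 102, 86.2 and 89.4 CPM in KO libraries. All KO libraries lay below all floxed libraries, and Pag1 fell by 0.97 (SE 0.19, edgeR adjusted p = 0.0328). Malt1, a protease of the pathway to NF-κB, fell by 0.77 (SE 0.16, adjusted p = 0.0389), from 55.1 to 32.3 CPM. Ptprc, the phosphatase CD45 (511 and 318 CPM), and Syk, the kinase related to Zap70 (436 and 352 CPM), were the most abundant, with adjusted p of 0.14 and 0.352. With the library numbers as a block, 0 of these genes passed, and with 1 library left out the number was 12 without floxed library 3, 1 without floxed library 4 and 0 without any other. With numbers 4 and 5 as a covariate, a fit that keeps all 8 libraries, 9 passed, against 18.5% of all genes.

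Of 29 genes of cytotoxic effectors and granule release, 27 were tested and 24 were lower in KO, with a median log2 fold change of -0.46, and 3 passed, to be read against the same shares of all genes (50.4%, 2.97% and 17.5%). Ncr1, an activating receptor of NK cells, had 6.09, 3.95, 5.36 and 5.06 CPM in floxed and 2.23, 1.77, 1.31 and 0.870 CPM in KO libraries. It fell by 1.72 (SE 0.32, edgeR adjusted p = 0.0291) and was the only gene of these lists to be called. Ccr3, a chemokine receptor of eosinophils and basophils, rose by 1.20 (SE 0.27, edgeR adjusted p = 0.0475), from 10.6 to 24.5 CPM. Srgn, the proteoglycan of granules (266 and 198 CPM), and Lamp1, a membrane protein of lysosomes and granules (259.9 and 256 CPM), were the most abundant and did not pass. With the library numbers as a block, 0 of this list passed as well, and with 1 library left out the number was 14 without floxed library 3, 1 without floxed library 4 and 0 without any other. With numbers 4 and 5 as a covariate, 9 passed, against 18.5% of all genes.

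Of 14 transcription factors of the T lineage, 14 were tested and 1 passed, against 2.97% of all genes. Id3, an inhibitor of E proteins, had 3.40, 6.03, 4.51 and 7.17 CPM in floxed and 9.87, 9.67, 13.5 and 16.6 CPM in KO libraries, so that the groups did not overlap, with KO above, as for 7.1% of all genes. It rose by 1.23 (SE 0.28, edgeR adjusted p = 0.0495), and it did not pass with the block. With 1 library left out, 6 genes of the list passed without floxed library 3, against 17.5% of all genes, and 0 without any other. With numbers 4 and 5 as a covariate, 4 passed, against 18.5% of all genes. The median of this list was -0.27, with 10 of 14 lower. Ikzf1 (395 and 291 CPM) and Ets1 (179 and 134 CPM) had the highest counts, with adjusted p of 0.128 and 0.136. Of the genes named from these lists, Pag1, Ptprc, Lamp1, Ikzf1 and Ets1 also overlap other genes with a count, and those reads were not separated.

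**Figure D5:**
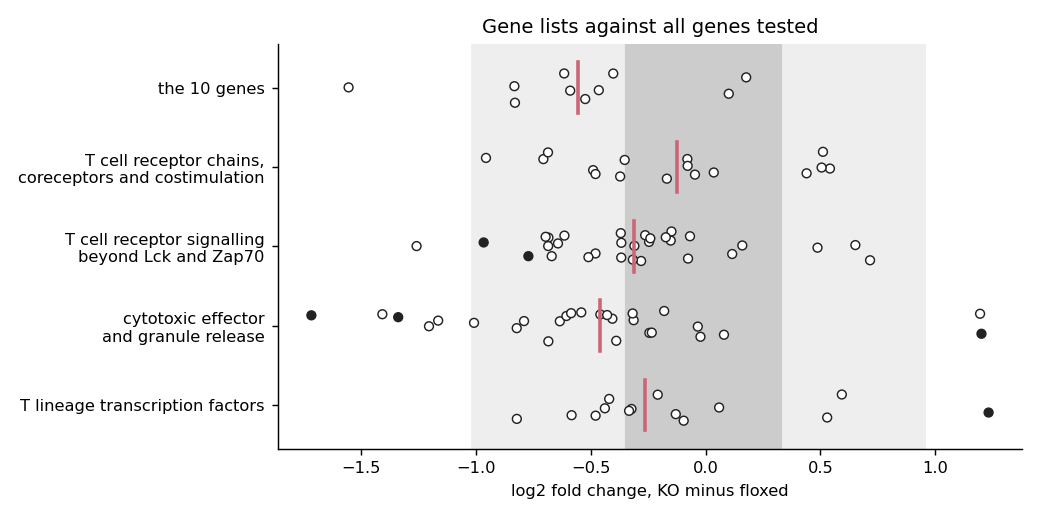
Log2 fold change (KO minus floxed) of the 10 genes and of the 4 lists, 1 point for each gene tested, filled where the edgeR adjusted p is under 0.05, with the median of each list as a red bar. The dark band holds the middle 50% of all genes tested and the light band reaches from the 5th to the 95th percentile; the list medians lie between -0.56 and -0.12.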

How the data were processed

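Per the submitters' processing notes and the study's methods, FastQC, Trim Galore and Bowtie2 were used, with GRCm38 (mm10). The study's methods name the reference transcripts as what the reads were aligned to. The authors deposited raw counts per library for 138930 Ensembl transcripts, without normalization. The counting tool, its use of strand and the annotation release are not given in the sources used here. The deposited counts of all 8 files are whole numbers. They appear to cover the span of a transcript with introns and both strands. This was inferred from the counts and differs from the alignment to transcripts that the methods name. GENCODE M21 (GRCm38) gave the gene of 138789 transcripts, and each gene took the count of whichever of its transcripts had most counts in the 8 libraries together. Library totals were 56661356 to 120858975 transcript counts, and the counts behind the values of the 10 genes were 33 to 3197 per library.

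Counts were filtered with filterByExpr, scaled by TMM and tested with the quasi-likelihood test of edgeR 4.0.16 under R 4.3.3, and p-values were adjusted by Benjamini-Hochberg over all genes tested. The thresholds of 0.05 and 1.5 are those of the study's methods. DESeq2 1.42.0, limma-voom (limma 3.58.1), other filters, scalings and pseudocounts, and leaving out each library were alternatives. The edgeR, DESeq2 and limma-voom fits were tested on simulated data. CPM use TMM-scaled totals. For single genes, an exact permutation test (two-sided) was run on log2(CPM + 1). Python 3.11.15 with numpy 2.4.6, scipy 1.17.1, pandas 2.3.3 and matplotlib 3.10.9 was used for the other steps.

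Library numbers 3, 4 and 5 occur in both genotypes, from the titles in the labels. Deviations from the genotype mean correlated at 0.374, 0.394 and 0.579 for these 3 pairs, and other pairs within numbers 1 to 3 or within 4 and 5 reached 0.346 to 0.603. The numbers were taken to pair the libraries in an alternative with the number as a block, although the mice differ. That alternative used only numbers 3, 4 and 5, so floxed library 1 and KO library 2 were left out. Within a genotype, every pair of libraries differed beyond counting error.

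The 10 genes and the gene lists were chosen with earlier results of these data known. Named genes are the 10, Ociad1, list genes with an adjusted p under 0.05 and the 2 most abundant of each list, the 3 genes most correlated with the most counted member of each role, and genes that overlap a member. The values of 1 such list gene are not reported here. The Cd247 coding transcript was added after the counts were seen. Marker genes other than these, and Gzmk and Gzmm, were chosen after their values were seen.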

Additional observations from a re-analysis of the deposited data

Results flagged for a closer look

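In 4 of the 24 sets of 4 libraries (the 10 genes, Ociad1 and the Cd247 coding transcript in each genotype) 1 library lay far from the other 3 on the scale log2(CPM + 1), where chance gives about 1 in 20, or 1.2 sets. Cd3d was at 4.37 in floxed library 3, against 1.996 to 2.245 in the other floxed libraries. Lck was at 3.02 in floxed library 1, against 3.62 in the others, and at 3.17 in KO library 3, against 3.67 to 3.72. Ccl5 was at 2.62 in KO library 2, against 2.12 to 2.20.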

How the results depend on the processing

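Of the 175 fits of the 10 genes in the 18 alternatives, the coding transcript of Cd247 aside, 167 kept their direction and their side of the threshold, 4 passed the threshold in addition and 4 turned direction. The direction of Cd247 turned with the sum over transcripts (0.0895), with 1 library left out (-0.58 to 0.0261, turned without floxed replicate 3) and with the coding transcript (0.23; 0.18 with the replicate block, 0.22 with numbers 4 and 5 as a covariate, and without floxed replicates 1, 3, 4 and 5 in turn 0.16, 0.35, 0.30 and 0.17, without KO replicates 2, 3, 4 and 5 in turn 0.28, 0.30, 0.28 and 0.13). That of Lck turned with the replicate block (-0.10) and with 1 library left out (-0.0179 to 0.23, turned without floxed replicate 1). Ociad1 ranged from -1.75 to -1.29 with 1 library left out and did not pass in 4 of these fits. The causes were not tested.

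The number of genes called, 261, was 503 with DESeq2, 44 with the replicate block, 521 with numbers 4 and 5 as a covariate and 51 to 857 with 1 library left out, the highest without floxed replicate 3. Members with an adjusted p under 0.05 were 1 with numbers 4 and 5 as a covariate and 0 to 3 with 1 library left out. For receptor chains the count was 1 with that covariate and 0 to 1 with a library left out. For signalling genes it was 1 without a filter, 6 with DESeq2, 1 without overlapping genes, 0 with the replicate block, 9 with the covariate and 0 to 12 with a library left out. For cytotoxic genes it was 7 with DESeq2, 0 with the block, 9 with the covariate and 0 to 14. For transcription factors it was 0 without haemoglobin genes, with the filter of 10 counts in 4 libraries, with limma-voom and with the block, 2 with DESeq2, 4 with the covariate and 0 to 6. Of all genes tested, 2.97% had an adjusted p under 0.05 in the main fit, 18.5% with the covariate and 17.5% without floxed replicate 3. The shares of all genes in the other settings are not given here. The replicate block changed no call of a member. Cd3d has neither a p nor an adjusted p from DESeq2, and leaving out overlapping genes removed Cd3e, Cd247, Lck, Zap70 and Ociad1. With a pseudocount of 5, the differences within numbers 4 and 5 were -0.25 for Gzma and -0.78 for Ccl5, in place of -0.57 and -1.23, and that of Gzma within numbers 1 to 3 was -0.33 in place of -0.64. As few as 33 counts in a library lay behind a value of the 10 genes, and how far depth limited the tests was not tested.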

Other observations

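Among the NK cell markers, the activating receptor Klra8 was at 1.89 CPM in floxed and at 0.237 in KO libraries (log2 fold change -2.96, edgeR adjusted p = 0.0338), whereas the granzyme Gzmb (2.29 and 0.859 CPM, -1.41) and the transcription factor Eomes (4.30 and 2.13 CPM, -1.01) had adjusted p of 0.0762 and 0.0642. Prf1, the pore-forming protein released with granzymes, had 3.18 and 2.31 CPM (-0.46, adjusted p = 0.414). These genes were chosen after their values were seen.

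Within Lck, a short span (chr4:129557365-129558372) held 0.976 and 0.738 CPM in floxed libraries 1 and 3 and 0.923 and 0.754 CPM in KO libraries 2 and 3, but 0.128 and 0.153 CPM in floxed libraries 4 and 5 and 0.284 and 0.471 CPM in KO libraries 4 and 5. The split followed the library numbers and not the genotype, and the whole Lck span did not show it. This span was also chosen after its values were seen.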
